A study of Homo sapiens with 12 samples.

Results

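The genes described here are 10 members of the interleukin 6 signalling axis: the cytokine IL6, its receptor IL6R, the shared signal-transducing chain IL6ST (gp130), the kinases JAK1 and JAK2, the transcription factor STAT3, the feedback inhibitors SOCS1 and SOCS3, and the serine/threonine kinases PIM1 and PIM2. They were taken by name, whatever their values, from the deposited expression tables of 2 human multiple myeloma lines. All 10 had a row among the 61806 genes of the LP-1 table, matched by Ensembl identifier, and among the 19130 genes of the U266 table, matched by symbol. LP-1 and U266 are established lines of malignant plasma cells, labelled as wild type in genotype. The 4 groups were LP-1 with dihydroartemisinin (DHA, the active form of the artemisinin antimalarials) at its IC50, LP-1 with an equal amount of the solvent DMSO, U266 with DHA, and U266 with DMSO, each with 3 libraries collected after 12 h. The labels give no concentration of DHA, and nothing says that the 3 libraries of a group came from separate cultures, so the p-values measure only the spread between these samples, which may be technical.

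IL6 binds IL6R, and the complex engages gp130, whose bound Janus kinases phosphorylate STAT3. STAT3 then enters the nucleus and raises transcription of its targets, among them SOCS3, which binds gp130 and JAK and damps the signal, and PIM1. IL6 from bone marrow stroma is a growth and survival factor of myeloma cells, U266 is known for making its own IL6, and PIM2 is the PIM kinase known for high expression in myeloma.

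Promoter letters are shown for IL6, the ligand, and PIM2, the most abundant of the 10 transcripts, the 2 genes whose window held a searched motif. RefSeq windows (GRCh38.p14) of 250 bases before each annotated start were searched on both strands, and all 10 genes had at least 1 of 16 windows. The 6 motifs, in which N is any base, were the STAT element TTCNNNGAA, its narrower form TTCCNGGAA, which lies within it, the octamer ATGCAAAT read by POU factors, the cyclic AMP response element TGACGTCA, the ATF4 and C/EBP element TGATGCAAT and the kB element GGANTTTCC. No motifs overlapped in the matches shown. In the IL6 window, here chr7:22726950-22727146 on the + strand without the bases that GENCODE counts as exon, capitals mark the kB element, 72 to 64 bases before the RefSeq start. In the PIM2 window, chrX:48919025-48919274 on the − strand, capitals mark 2 octamers in opposite orientation, 160 to 153 and 123 to 116 bases before the start.
IL6: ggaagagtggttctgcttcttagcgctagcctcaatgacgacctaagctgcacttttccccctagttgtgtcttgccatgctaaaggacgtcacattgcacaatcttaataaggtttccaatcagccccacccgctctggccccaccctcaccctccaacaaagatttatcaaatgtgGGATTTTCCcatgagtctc
PIM2: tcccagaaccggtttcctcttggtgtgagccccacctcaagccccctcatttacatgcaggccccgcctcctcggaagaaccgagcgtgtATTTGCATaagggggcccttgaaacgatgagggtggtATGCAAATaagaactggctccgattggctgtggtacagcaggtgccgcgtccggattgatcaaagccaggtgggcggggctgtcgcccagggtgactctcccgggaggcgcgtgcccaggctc
The octamer was present in 1.63% of all 35116 windows and the kB element in 1.45%. The letters of the kB element were settled after the IL6 match had been seen, and its share depends on them: with 1 more G in front, 0.527% of windows held it, and with the exact letters of the IL6 match 0.0883%, and in all 3 forms IL6 was the member that matched. The STAT element (6.57% of windows), its narrower form (0.968%), the cyclic AMP element (1.65%) and the ATF4 and C/EBP element (0.216%) were found in no window of the 10 genes, which says only that these letters are not in those 250 bases.

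Values are FPKM, which divides reads by transcript length and by depth, as deposited. Recovered depths were 14.2 to 17.5 M reads (those counted in genes) for LP-1 with DHA and 13.4 to 15.4 M in LP-1 with DMSO, and 10.3 to 16.4 M in U266 with DHA and 14.5 to 21.8 M in U266 with DMSO. Most low read numbers were even in U266 but not in LP-1, so depths and read numbers of the lines may not share a unit. A pair of libraries stood apart. U266 DHA replicate 3 had 18375 genes above 0, against 14667 to 14971 in the other U266 libraries, and without LP-1 DMSO replicate 3 the number of genes called in LP-1 was 7073 instead of 5027. Of the 10 plasma cell markers checked, 8 reached 1 FPKM in each line. Their summed level was 941 to 953 FPKM with DHA and 1017 to 1374 FPKM with DMSO in LP-1, and 737 to 802 FPKM with DHA and 1100 to 1121 FPKM with DMSO in U266. These sums moved with the DHA groups of both lines, and their part in the results below was not tested. In bulk RNA, fewer cells of a type and less RNA per cell cannot be told apart.

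Each line was tested with limma on log2(FPKM + 1) over genes with at least 1 FPKM in at least 3 of its 6 libraries, and a gene was called at a Benjamini-Hochberg adjusted p under 0.05. A change on that scale understates the change of low genes. In LP-1, 8 of the 10 genes passed the filter, with IL6ST and JAK1 called higher and SOCS3, PIM1 and PIM2 called lower with DHA. SOCS3 passed only through its DMSO libraries and so had to differ. Among all 12514 genes tested in LP-1, 20% were called higher and 20.2% lower. In U266, 9 of the 10 passed, none was called higher, and IL6, IL6ST, SOCS3, PIM1 and PIM2 were called lower. Among all 10422 genes tested in U266, 21.1% were called higher and 19.6% lower. The DHA libraries lay wholly above the DMSO libraries for IL6ST and JAK1 and wholly below for SOCS3, PIM1 and PIM2 in LP-1, where 30.2% and 28.6% of all tested genes lay so. In U266 they lay wholly above for none of the 9 and wholly below for 7, all but JAK2 and STAT3, against 27.6% and 23.9% of all tested genes. The median change was -0.14 over the genes that passed in LP-1 and -0.21 in U266, against 0.01 and 0.02 over all genes tested. The LP-1 counts and median include SOCS3, for which a lower level with DHA was a condition of being tested.

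**Figure D1:**
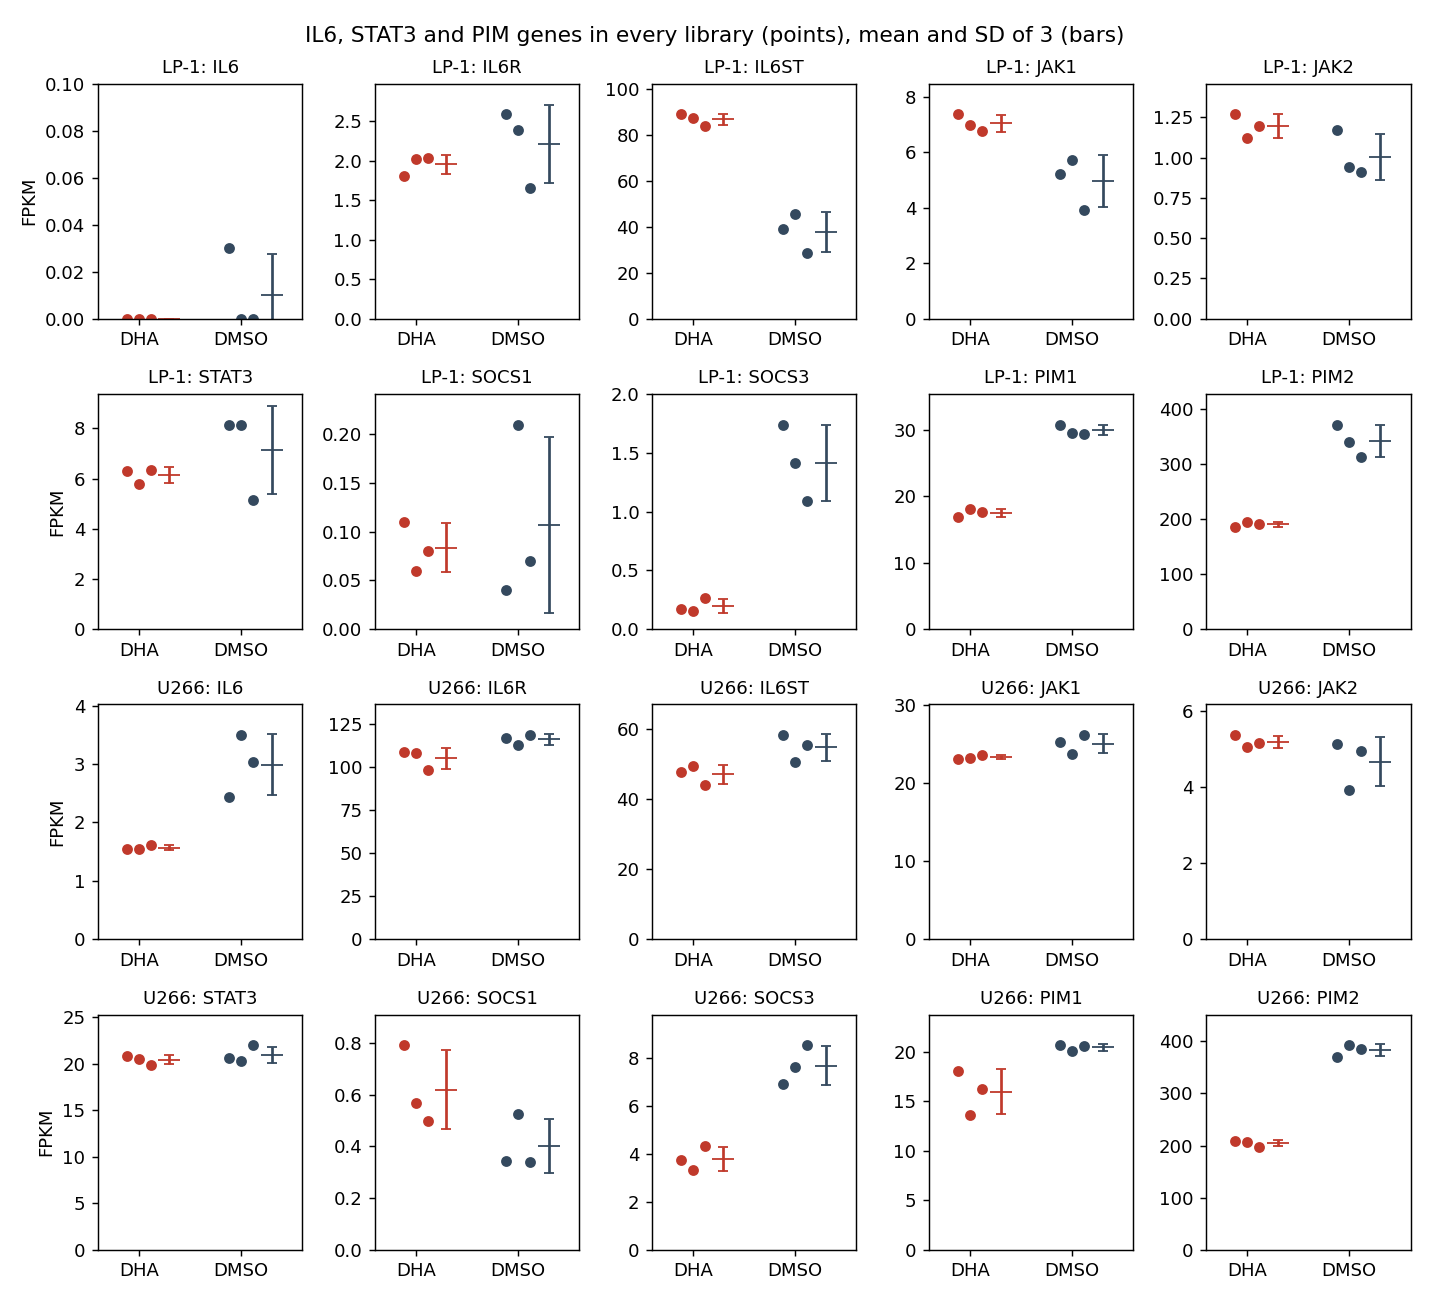
FPKM of the 10 genes in every library of LP-1 (upper 2 rows of panels) and U266 (lower 2 rows), with DHA left of DMSO and the mean and SD of 3 libraries beside the points; each panel has its own linear axis from 0. PIM1, PIM2 and SOCS3 lie lower in all DHA libraries than in all DMSO libraries of both lines, and IL6ST lies higher with DHA in LP-1 alone.

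The ligand was measurable in U266 only. IL6 (ENSG00000136244, chr7:22725884-22732002, + strand, GENCODE v29 on GRCh38, which gives all gene positions here) had 1.54, 1.54 and 1.62 FPKM in the DHA libraries of U266, against 2.44, 3.50 and 3.03 FPKM in the DMSO libraries. All 3 DHA values were below all 3 DMSO values, and the mean with DHA, 1.57 ± 0.04 FPKM, was 52.5% of the mean with DMSO, 2.99 ± 0.53 FPKM (SD, n = 3 each). The change was -0.63 ± 0.13 on the log2(FPKM + 1) scale (SE, adjusted p = 0.00326). These levels correspond to 33 to 55 recovered reads per DHA library and 91 to 158 per DMSO library, in a unit that may differ from that of LP-1. In LP-1, IL6 was at 0 in all 3 DHA libraries, and at 0.03, 0 and 0 FPKM in the DMSO libraries, which is 1 read in all. There, 3 reads, the limit that a count of 0 allows in a library, were worth 0.0828 to 0.108 FPKM, so a lower IL6 level was not detectable at this depth. IL6 shares 428 bases, 20.7% of its exons, with AC073072.1 on the opposite strand, and whether the counting used strand is unknown.

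The 8 other ligands of the gp130 family were at or below 1 FPKM in every LP-1 library, the highest being CNTF (ciliary neurotrophic factor) at 0.7, 0.54 and 0.63 FPKM with DHA and 0.2, 0.12 and 0.07 FPKM with DMSO. Of the family, 2 ligands were tested in U266, IL6 and CNTF. CNTF had a change of 0.08 with an adjusted p of 0.757.

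The receptor chains behaved differently in the lines. IL6ST (ENSG00000134352, chr5:55935095-55994993, − strand), the chain that all cytokines of this family signal through, had 88.81, 87.18 and 83.91 FPKM with DHA in LP-1, against 39.09, 45.47 and 28.3 FPKM with DMSO. The groups were far apart, at 86.6 ± 2.50 FPKM with DHA and 37.6 ± 8.68 FPKM with DMSO (SD, n = 3 each), a ratio of 2.30. Its change in LP-1 was 1.21 ± 0.17 (SE, adjusted p = 0.0027), and 1.02 without LP-1 DMSO replicate 3, the library with the lowest value. In U266 the same gene had 47.8, 49.4 and 44.1 FPKM with DHA and 58.3, 50.6 and 55.5 FPKM with DMSO. The U266 groups did not overlap, but by a narrow margin, and the change was -0.21 ± 0.06 (SE, adjusted p = 0.0213). That U266 call was lost in 7 of 14 alternatives, for example without DHA replicate 3 (adjusted p = 0.0576) and with all 12 libraries in 1 fit (adjusted p = 0.262), over a range of 0.0088 to 0.262. IL6ST shares 797 bases, 8.58% of its exons, with AC008914.1 on the opposite strand.

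IL6R (ENSG00000160712, chr1:154405193-154469450, + strand), the chain that binds IL6 itself, was called in neither line. U266 had 108.7, 108.6 and 98.2 FPKM of IL6R with DHA, against 117.0, 112.9 and 118.8 FPKM with DMSO. The DHA values were all below the DMSO values, and the adjusted p of 0.0511 for a change of -0.14 lay just above the threshold. It ranged from 0.047 to 0.313 over the alternatives, 3 of which called the gene. In LP-1, IL6R had 1.81, 2.02 and 2.03 FPKM with DHA and 2.59, 2.39 and 1.66 FPKM with DMSO, overlapping groups with a change of -0.11 (95% interval -0.43 to 0.21, adjusted p = 0.532). Without LP-1 DMSO replicate 3 the change was -0.24 with an adjusted p of 0.0475.

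Of 8 receptor chains of the gp130 family, 5 were tested in LP-1, with 1 called higher and 2 lower, and 3 in U266, with none higher and 2 lower. Among all tested genes, 20% were called higher and 20.2% lower in LP-1, and 21.1% and 19.6% in U266. IL27RA, the receptor chain for interleukin 27, fell in both lines. It had 6.97, 7.82 and 7.63 FPKM with DHA and 13.8, 12.27 and 12.22 FPKM with DMSO in LP-1 (change -0.70, adjusted p = 0.00165). In U266 it had 13.5, 10.8 and 11.5 FPKM with DHA and 17.94, 17.94 and 17.92 FPKM with DMSO (change -0.55, adjusted p = 0.000298). IL11RA, the receptor for interleukin 11, had 0.497 ± 0.081 FPKM with DHA and 1.66 ± 0.47 FPKM with DMSO in LP-1 (SD, n = 3 each, change -0.81, adjusted p = 0.00817), and it too passed the filter only through its DMSO libraries.

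Among the kinases, JAK1 (ENSG00000162434, chr1:64833229-64966504, − strand), a gp130-bound tyrosine kinase, had 7.36, 6.96 and 6.77 FPKM with DHA in LP-1, against 5.19, 5.73 and 3.92 FPKM with DMSO. The groups did not overlap, the lowest DMSO value was that of replicate 3, and the change was 0.44 ± 0.13 (SE, adjusted p = 0.0339). The call was lost with no filter (adjusted p = 0.0758), without any 1 of the 3 DHA libraries (0.115, 0.0993 and 0.0872 for replicates 1, 2 and 3) and without DMSO replicate 1 (0.0706), within a range of 0.00256 to 0.115. In U266, JAK1 had 23.1, 23.2 and 23.6 FPKM with DHA and 25.2, 23.7 and 26.1 FPKM with DMSO, a change of -0.10 that did not pass (adjusted p = 0.165). JAK2 (ENSG00000096968, chr9:4984390-5128183, + strand), another kinase of the receptor complex, did not pass in either line. In LP-1 it had 1.27, 1.12 and 1.2 FPKM with DHA and 1.17, 0.94 and 0.91 FPKM with DMSO (change 0.13, 95% interval -0.11 to 0.37, adjusted p = 0.327). In U266 it had 5.37, 5.04 and 5.15 FPKM with DHA and 5.14, 3.93 and 4.95 FPKM with DMSO (change 0.13, 95% interval -0.09 to 0.35, adjusted p = 0.323).

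STAT3 (ENSG00000168610, chr17:42313324-42388568, − strand), the transcription factor at the centre of the axis, was called in neither line. U266 had 20.9, 20.5 and 19.9 FPKM with DHA and 20.6, 20.3 and 22.0 FPKM with DMSO, overlapping groups with a change of -0.04 (95% interval -0.15 to 0.08, adjusted p = 0.631). LP-1 had 6.3, 5.78 and 6.33 FPKM with DHA and 8.15, 8.15 and 5.13 FPKM with DMSO (change -0.17, 95% interval -0.57 to 0.24, adjusted p = 0.456). The 3 DHA values fell between DMSO replicate 3 and the other DMSO libraries. Without that library the change was -0.36 with an adjusted p of 0.00348. These are transcript levels, and phosphorylated STAT3 was not measured in the tables used here.

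Of 11 Janus kinase and STAT genes, 10 were tested in LP-1, with 1 called higher and 1 lower, and 9 in U266, with 2 higher and 2 lower. All tested genes gave 20% higher and 20.2% lower in LP-1, and 21.1% and 19.6% in U266. JAK3, the kinase of the common gamma chain, had a change of -0.31 in U266 (adjusted p = 0.0104) and 0.01 in LP-1 (adjusted p = 0.951), and TYK2, the remaining Janus kinase, -0.22 in U266 (adjusted p = 0.0127) and -0.08 in LP-1 (adjusted p = 0.618). Both U266 calls were lost with all 12 libraries in 1 fit (adjusted p = 0.0661 for JAK3 and 0.12 for TYK2), and TYK2 was called lower in LP-1 without DMSO replicate 3 (-0.21, adjusted p = 0.0275). STAT5B, a STAT of growth hormone and cytokine receptors, was called lower in LP-1 (-0.29, adjusted p = 0.0485) and higher in U266 (0.25, adjusted p = 0.0475). The STAT5B calls were lost in 8 of 14 alternatives in LP-1 and 12 of 14 in U266, with adjusted p up to 0.297 and 0.146. STAT5A was not tested, since it reached 1 FPKM only in U266 DHA replicate 3.

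The feedback inhibitor SOCS3 fell in both lines. SOCS3 (ENSG00000184557, chr17:78356778-78360077, − strand) had 0.17, 0.15 and 0.26 FPKM with DHA in LP-1, against 1.74, 1.41 and 1.09 FPKM with DMSO. The DHA mean was 13.7% of the DMSO mean, and the libraries held 7 to 10 reads with DHA and 46 to 64 reads with DMSO. The change was -1.01 ± 0.13 on the log2(FPKM + 1) scale (SE, adjusted p = 0.00219), and -2.36 with a pseudocount of 0.1 in place of 1. In U266, SOCS3 had 3.75, 3.33 and 4.33 FPKM with DHA and 6.91, 7.64 and 8.55 FPKM with DMSO. Here the DHA mean was 49.4% of the DMSO mean, no libraries overlapped, and the change was -0.86 ± 0.10 (SE, adjusted p = 0.00012). In U266 SOCS3 stayed called in all 14 alternatives. In LP-1 SOCS3 entered the filtered test only through its DMSO libraries, so its lower values with DHA were a condition of being tested there. With no filter its adjusted p in LP-1 was 0.00751.

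SOCS1 (ENSG00000185338, chr16:11254405-11256200, − strand), a direct inhibitor of JAK catalysis, stood below the 1 FPKM filter in both lines and was not tested. It had 0.11, 0.06 and 0.08 FPKM with DHA and 0.04, 0.21 and 0.07 FPKM with DMSO in LP-1, or 1 to 5 reads a library. U266 had 0.791, 0.567 and 0.498 FPKM of SOCS1 with DHA and 0.344, 0.523 and 0.338 FPKM with DMSO, and its groups overlapped. The read estimates there, 8.79 to 20.51 a library, were not whole numbers, so the read counts of SOCS1 in U266 are not known.

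Of 16 inhibitors of the pathway, 12 were tested in each line, with 3 called higher and 1 lower in LP-1 and 3 higher and 3 lower in U266. The 1 called lower in LP-1 was SOCS3, which passed the filter there only through its DMSO libraries. The shares over all tested genes were 20% higher and 20.2% lower in LP-1, and 21.1% and 19.6% in U266. PTPN1, a phosphatase that acts on JAK2 and TYK2, was the gene called higher in both. Its level was 30.2 ± 1.12 FPKM with DHA and 20.6 ± 4.80 FPKM with DMSO in LP-1 (SD, n = 3 each, change 0.55, adjusted p = 0.0429), and 27.3 ± 0.82 FPKM with DHA and 22.9 ± 1.72 FPKM with DMSO in U266 (SD, n = 3 each, change 0.24, adjusted p = 0.00969). The PTPN1 call in LP-1 was lost in 6 of 14 alternatives (adjusted p up to 0.127). SOCS4, a less studied family member, had a change of 0.43 in LP-1 (adjusted p = 0.0259, lost in 5 of 14 alternatives, up to 0.0921) and 0.12 in U266 (adjusted p = 0.24). SOCS7 rose in U266, at 9.61 ± 0.76 FPKM with DHA and 5.83 ± 0.42 FPKM with DMSO (SD, n = 3 each, change 0.63, adjusted p = 0.000173), and in LP-1 had a change of 0.53 with an adjusted p of 0.0559. The phosphatases PTPRC (CD45) and PTPN6 (SHP-1) fell in U266, by 0.88 and 0.58 on the log2(FPKM + 1) scale (adjusted p = 5.22e-05 and 0.00116). PTPRC was 2.65 ± 0.28 FPKM with DHA and 5.69 ± 0.14 FPKM with DMSO, and PTPN6 was 5.25 ± 0.86 FPKM with DHA and 8.31 ± 0.09 FPKM with DMSO (SD, n = 3 each). Both were below 0.5 FPKM in LP-1 and not tested there. CISH, an inhibitor induced by STAT5, was not tested in either line, at 0.07, 0.2 and 0.07 FPKM with DHA and 0.43, 0.6 and 0.42 FPKM with DMSO in LP-1. SOCS2, which acts on the growth hormone receptor, had a change of -0.17 in LP-1 (adjusted p = 0.142) and was not tested in U266.

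PIM2 (ENSG00000102096, chrX:48913182-48919024, − strand), a kinase that acts on translation and survival proteins, had the highest level of the 10 genes in all 4 groups, and it fell in both lines. LP-1 had 186.05, 195.04 and 190.05 FPKM with DHA, against 371.75, 339.86 and 312.8 FPKM with DMSO. U266 had 208.1, 207.1 and 198.0 FPKM with DHA, against 370.1, 392.2 and 385.8 FPKM with DMSO. The groups were far apart in each line, with DHA means at 55.8% of the DMSO mean in LP-1 and 53.4% in U266. The change was -0.84 ± 0.10 in LP-1 (SE, adjusted p = 0.00154) and -0.90 ± 0.05 in U266 (SE, adjusted p = 5.66e-07), and it was called in every alternative run. In LP-1 quantile normalization brought the change to -0.56 with an adjusted p of 0.0484.

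PIM1 (ENSG00000137193, chr6:37170203-37175426, + strand), the family member known as a STAT3 target, had 16.8, 18.02 and 17.6 FPKM with DHA in LP-1, against 30.77, 29.54 and 29.38 FPKM with DMSO. In U266 it had 18.1, 13.6 and 16.3 FPKM with DHA, against 20.7, 20.1 and 20.6 FPKM with DMSO. No libraries overlapped in either line, but the DHA libraries of U266 were more spread and came within 2 FPKM of the DMSO libraries. The change was -0.74 ± 0.07 in LP-1 (SE, adjusted p = 0.000703) and -0.35 ± 0.09 in U266 (SE, adjusted p = 0.00977). PIM3, which is not among the 10 genes, had 41.6, 41.7 and 41.9 FPKM with DHA and 35.2, 34.4 and 46.8 FPKM with DMSO in LP-1, a change of 0.12 (adjusted p = 0.487). Without LP-1 DMSO replicate 3 PIM3 was called higher (0.26, adjusted p = 0.00302), and so it was after rescaling without immunoglobulin and mitochondrial genes (0.26, adjusted p = 0.0411). In U266, PIM3 was 24.5 ± 2.83 FPKM with DHA and 25.5 ± 2.15 FPKM with DMSO (SD, n = 3 each, change -0.06, adjusted p = 0.611).

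Summed over PIM1, PIM2 and PIM3, the level was 244 to 255 FPKM in the DHA libraries of LP-1 and 389 to 438 FPKM in its DMSO libraries. PIM2 made up 76.1 to 76.5% of that sum with DHA and 80.4 to 84.9% with DMSO. In U266 the sum was 237 to 254 FPKM with DHA and 414 to 438 FPKM with DMSO, and the PIM2 share was 82.0 to 84.9% with DHA and 88.9 to 89.5% with DMSO. The total and the share of PIM2 were thus lower in every DHA library than in every DMSO library of the same line.

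**Figure D2:**
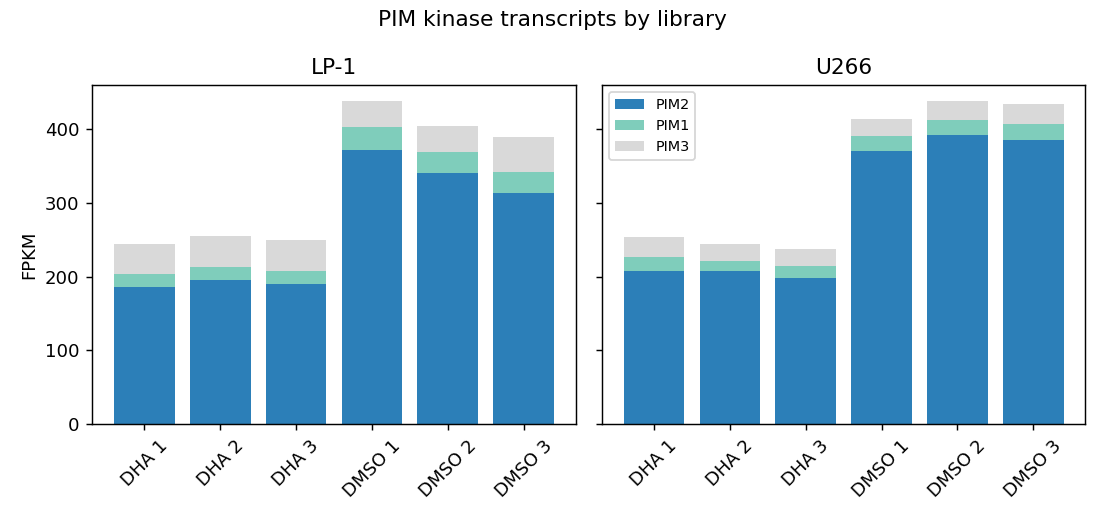
FPKM of PIM2, PIM1 and PIM3 stacked for each library, DHA left of DMSO, in LP-1 and U266. The DHA bars reach 244 to 255 FPKM in LP-1 and 237 to 254 FPKM in U266, below the DMSO bars at 389 to 438 and 414 to 438 FPKM, and most of the height and of its difference is PIM2.

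FPKM is scaled by transcript length, so levels can be ordered within a group. In LP-1 with DHA the order from high to low was PIM2, IL6ST, PIM1, JAK1, STAT3, IL6R, JAK2, SOCS3, SOCS1 and IL6, and the ranges of no neighbouring genes overlapped. In LP-1 with DMSO STAT3 stood above JAK1 and SOCS3 above JAK2, while the ranges overlapped between IL6ST and PIM1, STAT3 and JAK1, IL6R and SOCS3, and SOCS3 and JAK2. In U266 with DHA the order was PIM2, IL6R, IL6ST, JAK1, STAT3, PIM1, JAK2, SOCS3, IL6 and SOCS1, with no overlap of neighbours. With DMSO the order in U266 differed in that SOCS3 stood above JAK2, and the ranges of STAT3 and PIM1 overlapped. IL6R ranked second in U266 and sixth in LP-1 in both conditions, a comparison of ranks within each line, since the tables were made separately and levels were not compared across them.

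The difference between the lines was tested as the DHA effect in LP-1 minus that in U266, over 8933 genes kept in both, each effect being taken within its own table. Of the 8 members tested, 2 were called higher and 1 lower, where 18.5% of all genes were called higher and 16% lower. IL6ST differed by 1.42 ± 0.19 (SE, adjusted p = 0.000196) and JAK1 by 0.54 ± 0.14 (SE, adjusted p = 0.0112), both in all 19 alternatives. PIM1 differed by -0.40 ± 0.12 (SE, adjusted p = 0.0253), the fall being larger in LP-1, but the call was lost in 6 of 19 alternatives, with adjusted p up to 0.196. PIM2 did not pass, with a difference of 0.07 (95% interval -0.17 to 0.30, adjusted p = 0.67), nor did SOCS3, with -0.15 (95% interval -0.52 to 0.21, adjusted p = 0.51). With a pseudocount of 0.1 SOCS3 differed by -1.36 (adjusted p = 0.003). The STAT3 difference of -0.13 (95% interval -0.52 to 0.26, adjusted p = 0.597) was called without LP-1 DMSO replicate 3 (-0.32, adjusted p = 0.00495). IL6R and JAK2 had differences of 0.03 (95% interval -0.27 to 0.34) and 0.00 (95% interval -0.30 to 0.30). Of the members other than SOCS3 tested in both lines, PIM1 and PIM2 were called lower in both, none higher in both and IL6ST in opposite directions. Of the 8933 genes, 6.06%, 10.2% and 3.78% were called so. SOCS3 was called lower in both as well, but it is left out of that count, having entered the LP-1 test only through its DMSO libraries.

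**Figure D3:**
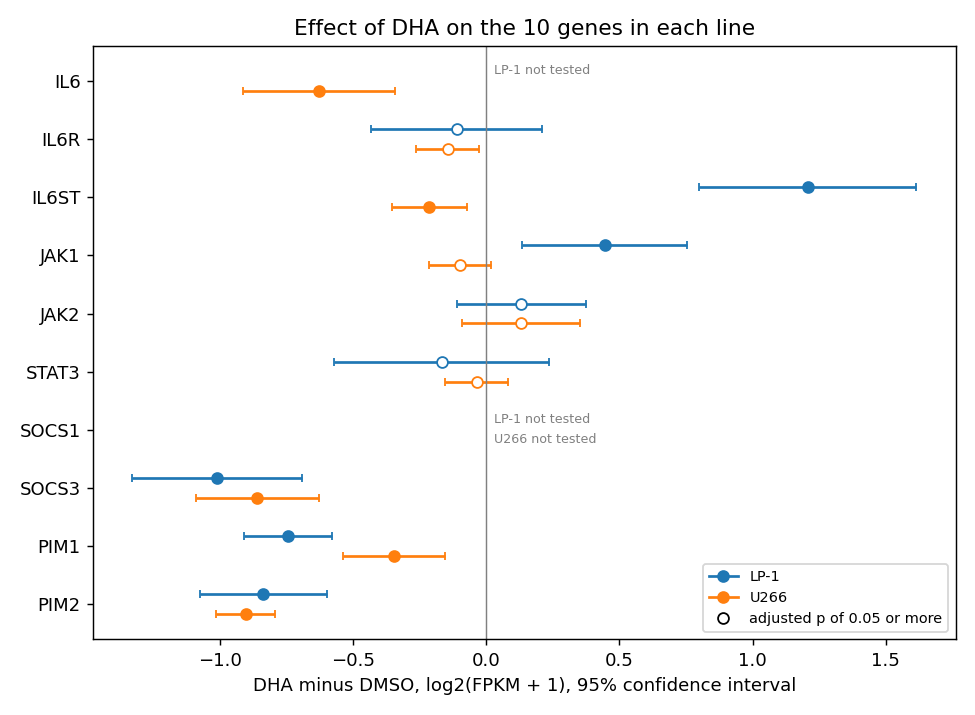
DHA minus DMSO on the log2(FPKM + 1) scale for each of the 10 genes, LP-1 above U266, with 95% confidence intervals from limma; open points have an adjusted p of 0.05 or more. SOCS3, PIM1 and PIM2 lie left of 0 in both lines, and IL6ST lies at 1.21 in LP-1 and at -0.21 in U266.

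Genes known as STAT3 targets moved in both directions. Of 31 listed, 22 were tested in LP-1, with 6 called higher and 10 lower, and 23 in U266, with 7 higher and 12 lower. Over all tested genes the shares were 20% higher and 20.2% lower in LP-1, and 21.1% and 19.6% in U266. The list holds SOCS3, PIM1 and STAT3 themselves. The list's median change was -0.23 in each line, against 0.01 over all tested genes in LP-1 and 0.02 in U266. Of 20 tested in both lines, BCL3, JUNB, MCL1, PIM1, ZFP36 and, with the limit given above, SOCS3 were called lower in both, CEBPB, IRF1 and VEGFA higher in both, and MYC, NFIL3, PRDM1 and SGK1 in opposite directions, names that were chosen after their values were seen.

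BCL3, a nuclear cofactor of NF-kB, had 2.65, 2.88 and 3.02 FPKM with DHA and 16.98, 19.38 and 12.53 FPKM with DMSO in LP-1 (change -2.15, adjusted p = 0.000307), and in U266 3.50, 4.31 and 6.22 FPKM with DHA and 7.31, 8.90 and 8.55 FPKM with DMSO (change -0.73, adjusted p = 0.00361). MCL1, a BCL2 family survival protein on which myeloma cells depend, fell by 0.67 in LP-1 (adjusted p = 0.00169, and -0.44 with quantile normalization) and by 0.34 in U266 (adjusted p = 0.000503). Its level was 155 ± 3.84 FPKM with DHA and 247 ± 8.78 FPKM with DMSO in LP-1, and 208 ± 10.0 FPKM with DHA and 264 ± 4.97 FPKM with DMSO in U266 (SD, n = 3 each). BCL2L1, which encodes the related BCL-XL, was called lower in U266 alone, at 16.5 ± 1.30 FPKM with DHA and 23.5 ± 0.62 FPKM with DMSO (SD, n = 3 each, change -0.49, adjusted p = 2e-04), and had a change of 0.03 in LP-1 (adjusted p = 0.821).

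CEBPB, a transcription factor of the acute phase and stress responses, rose most among the listed targets in both lines. LP-1 had 120.64, 120.87 and 116.74 FPKM with DHA and 24.16, 22.14 and 35.57 FPKM with DMSO (change 2.12, adjusted p = 0.000436). U266 had 93.0, 93.3 and 84.4 FPKM with DHA and 22.0, 24.9 and 23.5 FPKM with DMSO (change 1.90, adjusted p = 1.17e-08). The proto-oncogene MYC, also a PIM substrate, was called in opposite directions. It had 293.36, 286.74 and 270.97 FPKM with DHA and 220.63, 220.87 and 180.43 FPKM with DMSO in LP-1 (change 0.46, adjusted p = 0.0204), a call lost in 4 of 14 alternatives with adjusted p up to 0.0925 and a change of 0.74 with quantile normalization. In U266 MYC had 1.90, 2.64 and 3.27 FPKM with DHA and 10.8, 9.69 and 9.58 FPKM with DMSO (change -1.63, adjusted p = 7.57e-06).

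Of 10 plasma cell markers, 8 were tested in each line, with 2 called higher and 5 lower in LP-1 and 0 higher and 5 lower in U266. The shares over all tested genes were 20% higher and 20.2% lower in LP-1, and 21.1% and 19.6% in U266. The 5 lower in LP-1 were SDC1 (syndecan-1, CD138), CD38, POU2AF1, MZB1 and XBP1. SDC1 had the largest fall, with 5.16 ± 0.48 FPKM with DHA and 30.9 ± 1.72 FPKM with DMSO (SD, n = 3 each, change -2.37, adjusted p = 4.93e-05), and the other changes were -0.95 for CD38, -0.88 for POU2AF1, -0.68 for MZB1 and -0.59 for XBP1. SDC1, POU2AF1 and XBP1 were called lower in U266 too, with changes of -1.11, -0.88 and -0.33, and these markers were named after their values were seen. The 2 called higher in LP-1 were PRDM1 (BLIMP1) and IRF4, transcription factors of plasma cell identity. IRF4 was 253 ± 7.91 FPKM with DHA and 79.9 ± 14.3 FPKM with DMSO (SD, n = 3 each, change 1.66, adjusted p = 0.000513), and PRDM1 39.5 ± 1.28 FPKM with DHA and 24.8 ± 5.99 FPKM with DMSO (SD, n = 3 each, change 0.68, adjusted p = 0.0236). In U266, IRF4 was 179 ± 7.41 FPKM with DHA and 179 ± 6.11 FPKM with DMSO (SD, n = 3 each, adjusted p = 0.998), and PRDM1 had a change of -0.19 (adjusted p = 0.0287). The PRDM1 calls were lost in 5 of 14 alternatives in LP-1 (adjusted p up to 0.0814) and in 8 of 14 in U266 (up to 0.338).

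**Figure D4:**
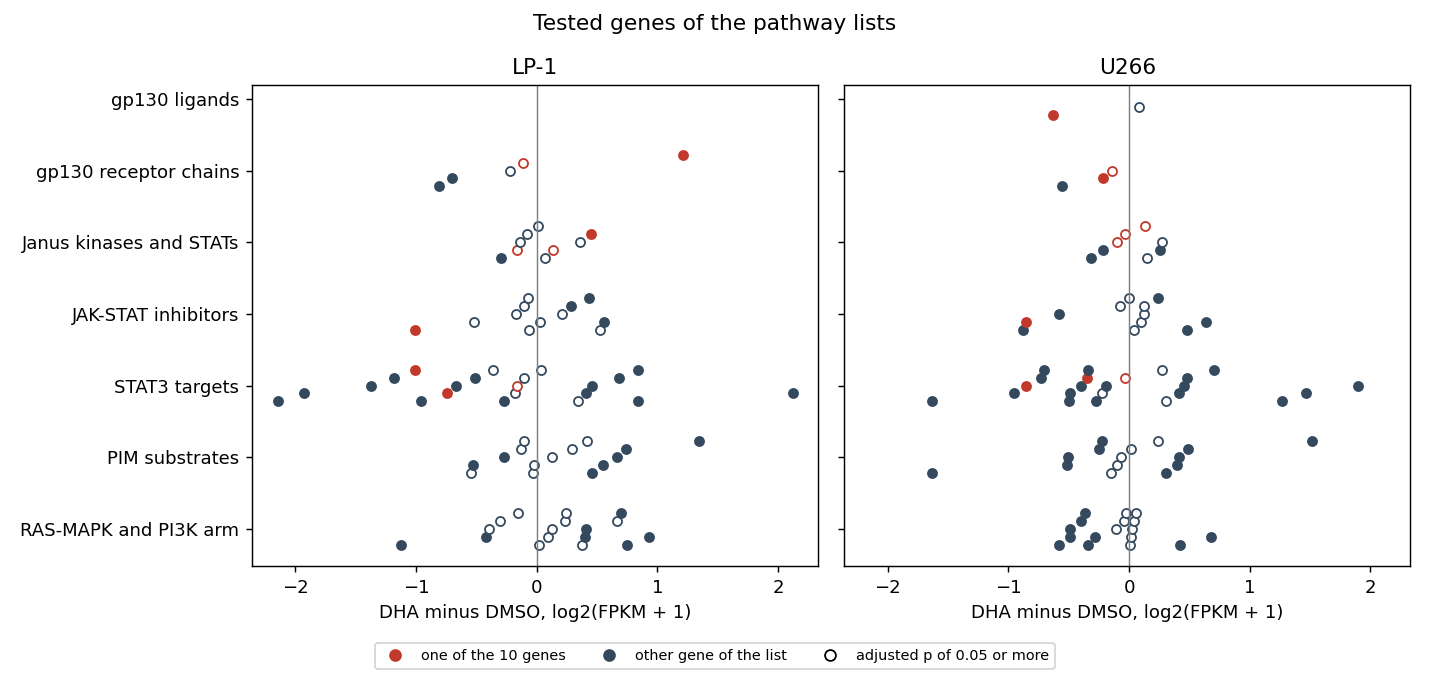
DHA minus DMSO on the log2(FPKM + 1) scale for tested genes of 7 pathway lists in LP-1 and U266; red points are among the 10 genes, other list genes are dark, and open points have an adjusted p of 0.05 or more. STAT3 targets spread to both sides of 0 in each line, with CEBPB at 2.12 in LP-1 and 1.90 in U266 and BCL3 at -2.15 and -0.73.

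Substrates of PIM kinases were all measured. Of 15, 5 were called higher and 2 lower in LP-1, and 5 higher and 5 lower in U266. Among all tested genes, 20% were called higher and 20.2% lower in LP-1, and 21.1% and 19.6% in U266. EIF4EBP1, the translational repressor 4E-BP1, rose in both lines. It was 297 ± 17.6 FPKM with DHA and 118 ± 29.3 FPKM with DMSO in LP-1 (SD, n = 3 each, change 1.35, adjusted p = 0.00213), and 173 ± 8.34 FPKM with DHA and 60.1 ± 7.31 FPKM with DMSO in U266 (SD, n = 3 each, change 1.52, adjusted p = 3.87e-07). CDC25A, a phosphatase that drives the cell cycle, was called higher in LP-1 (0.74, adjusted p = 0.000734) and lower in U266 (-0.50, adjusted p = 0.000519). The cell cycle inhibitor CDKN1A went the opposite way, with changes of -0.53 in LP-1 (adjusted p = 0.00454) and 0.40 in U266 (adjusted p = 0.000334), and it was named after its values were seen.

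In the RAS-MAPK and PI3K arm that gp130 also engages, 17 of 17 genes were tested, with 5 called higher and 2 lower in LP-1 and 2 higher and 7 lower in U266. All tested genes gave 20% higher and 20.2% lower in LP-1, and 21.1% and 19.6% in U266. The kinase genes AKT1 and MAPK3 (ERK1) were called lower in both lines, and PIK3CA, the catalytic PI3K subunit p110 alpha, was called higher in both (0.40 in LP-1, adjusted p = 0.0242, and 0.42 in U266, adjusted p = 0.000472), the last named after its values were seen. MAPK3 had 6.61 ± 0.87 FPKM with DHA and 15.6 ± 1.62 FPKM with DMSO in LP-1 (SD, n = 3 each, change -1.12, adjusted p = 0.00102), and 14.6 ± 1.52 FPKM with DHA and 19.6 ± 1.77 FPKM with DMSO in U266 (SD, n = 3 each, change -0.40, adjusted p = 0.00401). AKT1 changed by -0.42 in LP-1 (adjusted p = 0.0135) and by -0.58 in U266 (adjusted p = 0.000215). PIK3R1, the regulatory PI3K subunit p85 alpha, rose in LP-1 (0.93, adjusted p = 0.00148) and had a change of 0.02 in U266 (adjusted p = 0.805). The adaptor GAB2 was called higher in U266 (0.68, adjusted p = 0.0113, lost with no filter at 0.055) and had a change of 0.66 in LP-1 with an adjusted p of 0.0657. In U266 GAB2 met the filter of 3 libraries only with its DHA libraries, where it was high, and it is among the 2 called higher there.

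Over the 6 libraries of a line, the genes with a mean of at least 5 FPKM most like each of 3 members were listed by Pearson's r as a description, the libraries sharing the split into DHA and DMSO. For PIM2 these were ENO2 (r = 0.9992), TUBB (0.9991) and SIPA1 (0.9975) in LP-1, and MCM5 (0.9998), MAGED1 (0.9995) and PCNA (0.9995) in U266. For SOCS3 they were ZDHHC18 (0.9995), PCED1A (0.9975) and ZDHHC2 (0.9972) in LP-1, and ZDHHC12 (0.9997), ERGIC1 (0.9975) and EMC10 (0.9972) in U266. For IL6 in U266 they were MYD88 (0.9957), HSH2D (0.9955) and GIPC1 (0.9949). An r above 0.95 was common, reached by 492 of 6902 genes for PIM2 in LP-1 and by 843 of 7016 in U266.

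Markers of cells that could supply IL6 were summed by list. The 9 monocyte and macrophage markers summed to 0.21 to 0.43 FPKM with DHA and 0.07 to 0.35 FPKM with DMSO in LP-1, with 2 at 0 in all libraries, and the 9 stromal markers to 0.66 to 0.68 FPKM with DHA and 0.51 to 0.7 FPKM with DMSO, with 1 at 0. In U266 the monocyte sum was 1.80 to 11.2 FPKM with DHA and 0.93 to 1.25 FPKM with DMSO, and the stromal sum 8.08 to 14.97 FPKM with DHA and 5.47 to 6.04 FPKM with DMSO, with no marker at 0 in all libraries. Of the stromal markers 3 were tested in U266, and 2 were called higher with DHA. COL3A1, a fibrillar collagen, had 6.01, 3.83 and 3.30 FPKM with DHA and 2.36, 1.94 and 1.95 FPKM with DMSO (change 0.77, adjusted p = 0.0045), and COL1A1 2.38, 1.11 and 1.77 FPKM with DHA and 0.842, 0.783 and 1.07 FPKM with DMSO (change 0.51, adjusted p = 0.0491). COL1A1 met the filter of 3 libraries only with its DHA libraries, where it was high. The 7 T and NK cell markers summed to 0.02 to 0.12 FPKM with DHA and 0.19 to 0.45 FPKM with DMSO in LP-1, with 3 at 0, and to 0.79 to 5.57 FPKM with DHA and 1.31 to 1.87 FPKM with DMSO in U266. The 5 B cell markers summed to 2.61 to 3.02 FPKM with DHA and 2.78 to 8.77 FPKM with DMSO in LP-1, and to 3.54 to 12.7 FPKM with DHA and 6.44 to 7.84 FPKM with DMSO in U266. These sums were higher with DHA in U266 for the monocyte and stromal lists, while IL6 there was lower, and their part in the U266 results was not tested. Without U266 DHA replicate 3 the changes in U266 were -0.64 for IL6, -0.94 for SOCS3, -0.36 for PIM1 and -0.88 for PIM2, all still called.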

How the data were processed

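The 12 libraries were SMARTER mRNA libraries, as the labels' protocols have it. The authors deposited FPKM values, 1 table per line; aligner, counting tool and strand setting are unknown. GRCm38 and mm10, which are mouse builds, stand in the submitters' processing notes, although both tables hold human genes. Low FPKM values rise in steps of whole reads. Depth was worked out from these steps and GENCODE v29 exon lengths (92.6 to 94.7% of values within 0.1 read of a whole number). Floors of 3 reads cover counting error only. Among values of up to 20 reads, even numbers made up 36.3 to 38.4% in LP-1. In U266 they made up 77.3 to 79.3%, apart from DHA replicate 3 with 52.1%. Low read numbers of U266 thus often rose by 2 and may count another unit than those of LP-1, which was not tested. Values were log2(FPKM + 1). Genes reaching an FPKM of 1 in 3 or more of 6 libraries of a line were tested with limma 3.58.1 (R 4.3.3, eBayes with a variance trend, two-sided, Benjamini-Hochberg over all tested genes, threshold 0.05), each line alone. The contrast between lines used 12 libraries and genes kept in both, matched by Ensembl identifier. The fits were tested on simulated data. The members, the 13 other lists and the tests were chosen with earlier results of these data known. Named were the 10 members, 14 fixed genes, per list and line the 2 called genes with the largest change, and for IL6, SOCS3 and PIM2 the 3 genes of highest r; not every such gene is reported here. Alternatives were a pseudocount of 0.1, no filter, quantile normalization, TMM-style scaling with trims of 30% and 5%, rescaling without immunoglobulin and mitochondrial genes, no variance trend, a replicate block, all 12 libraries in 1 fit and leaving out each library.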

Additional observations from a re-analysis of the deposited data

Results flagged for a closer look

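The DHA effect in LP-1 minus that in U266 was tested for 18 members and fixed pathway genes that were kept in both lines. Given here are 9 that passed. Over all 8933 genes tested, 18.5% were called higher and 16% lower in this difference. The differences were 1.42 for IL6ST (effects of 1.21 in LP-1 and -0.21 in U266), 0.54 for JAK1 (0.44 and -0.10) and -0.40 for PIM1 (-0.74 and -0.35), on the log2(FPKM + 1) scale. Among transcription factors they were 2.09 for MYC (0.46 in LP-1 and -1.63 in U266, adjusted p = 1.08e-05), 1.66 for IRF4 (1.66 and 0.00, adjusted p = 1.88e-05), 0.87 for PRDM1 (0.68 and -0.19, adjusted p = 0.00501) and -0.55 for STAT5B (-0.29 and 0.25, adjusted p = 0.0083). Among survival genes they were 0.52 for BCL2L1 (0.03 in LP-1 and -0.49 in U266, adjusted p = 0.00655) and -0.33 for MCL1 (-0.67 and -0.34, adjusted p = 0.0206). Of these, the difference was lost in 6 of 19 alternatives for PIM1, in 6 of 19 for MCL1 and in 1 of 19 for STAT5B.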

How the results depend on the processing

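The main fits did not pair libraries by replicate number. The deviations of same-numbered DHA and DMSO libraries correlated at 0.0742, 0.0237 and 0.183 in LP-1 and at -0.0386, -0.0832 and -0.0247 in U266. Those of different-numbered libraries correlated at -0.173 to 0.162 in LP-1 and at -0.0229 to 0.0731 in U266. The 0.183 of replicate 3 was the highest value in LP-1, so these values do not settle whether its libraries are paired. With a replicate block, 2267 genes were called higher and 2292 lower in LP-1, 2016 and 1875 in U266, and 1542 and 1345 in the difference between the lines, against 2504 and 2523, 2203 and 2038, and 1653 and 1433 without it. The block left the counts of members unchanged, at 2 higher and 3 lower in LP-1, 0 and 5 in U266 and 2 and 1 in the difference.

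Leaving out 1 library at a time gave 1367 to 3499 genes higher and 1543 to 3574 lower in LP-1, with 1 to 2 members higher and 3 to 5 lower, the 5 coming without DMSO replicate 3. With no filter 1 member was higher in LP-1. In U266 leaving out 1 library gave 1731 to 2224 genes higher and 1643 to 2151 lower, with 0 members higher and 4 to 6 lower. All 12 libraries in 1 fit gave 1441 genes higher, 1110 lower and 3 members lower in U266. In the difference, leaving out 1 library gave 1259 to 2267 genes higher, 1079 to 2000 lower, 2 members higher and 0 to 2 lower. A pseudocount of 0.1 gave 2 members lower there. Rescaling without immunoglobulin and mitochondrial genes gave 1975 genes higher and 929 lower with 0 members lower in the difference, and 2832 genes higher and 1840 lower in LP-1, where it moved the median change of all genes to 0.125.

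Changes near 0 that did not pass turned sign. In LP-1 BCL2L1 had -0.026 with quantile normalization and -0.018 to 0.108 with 1 library left out, TYK2 had 0.053 after rescaling and -0.205 to 0.00066 with 1 library left out, and JAK3 had -0.136 to 0.091 with 1 library left out. In U266 IRF4 had -0.027 with TMM-style scaling, -0.0016 after rescaling and -0.027 to 0.032 with 1 library left out. In the difference IL6R had -0.0047 with a pseudocount of 0.1 and -0.097 to 0.120 with 1 library left out, and JAK2 had -0.060 to 0.099. The cause was not tested. PIM1 and PIM2 stayed called lower in both lines, SOCS3 lower in U266 and IL6ST higher in LP-1, under every alternative run. Depth limits IL6 and SOCS1 in LP-1, while SOCS1 in U266, whose read counts are not known, was left untested by the 1 FPKM filter.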

Other observations

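U266 DHA replicate 3 held transcripts of gp130 ligands and receptor chains that the other U266 libraries hardly showed. CLCF1, a ligand of the family, had 0, 0.281 and 2.99 FPKM in DHA replicates 1, 2 and 3, against 0.187, 0 and 0.0698 FPKM with DMSO. IL27 had 1.44 FPKM in DHA replicate 3 and was at 0 in the other 5 libraries, as were LIF, with 0.568 FPKM, and CNTFR, with 0.895 FPKM. IL11RA had 0.136, 0.0976 and 1.98 FPKM with DHA and 0.197, 0.0858 and 0.242 FPKM with DMSO. STAT5A had 0.539, 0.314 and 3.77 FPKM with DHA and 0.421, 0.334 and 0.455 FPKM with DMSO. None of these genes passed the filter in U266. In the same library even read numbers made up 52.1% of values of up to 20 reads, against 77.3 to 79.3% in the other 5 and 36.3 to 38.4% in the LP-1 libraries.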
